A study of Mus musculus with 9 samples.

Results

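The genes described here encode subunits of the receptors through which retinal neurons receive GABA, glycine and glutamate. They were taken by name from a list that was drawn up with earlier results of these data known. The 37 listed symbols were looked up in a table of 25108 genes and gene models, and each of the 37 was found on 1 entry. The list held 8 subunits of GABA-A receptors, 3 rho subunits, 5 glycine receptor subunits, 4 AMPA, 6 NMDA and 5 kainate receptor subunits, and 6 metabotropic glutamate receptors.

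RNA came from whole retinas of C57BL/6 mice at postnatal day 17 in 3 groups of 3 libraries each. OIR KO mice were IL-19 knockouts with oxygen-induced retinopathy, OIR WT mice were wild type with the same retinopathy, and RA WT mice were wild type in room air. IL-19 is a secreted cytokine. Oxygen-induced retinopathy is a model in which high oxygen stunts the vessels of the pup's retina, so that the tissue is short of oxygen once the pup is back in normal air and abnormal vessels then sprout. Knockout retinas in room air were not analysed here, so the genotypes were set against each other only with retinopathy. The labels do not describe the knockout allele, nor say which samples are separate animals. The p-values therefore reflect the variation among the 9 samples, and that variation may be technical.

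GABA-A, rho and glycine receptors are channels that let chloride into the cell and usually quiet it. AMPA, kainate and NMDA receptors are cation channels that excite it, and metabotropic glutamate receptors act through G proteins. In the retina, amacrine cells release GABA or glycine, photoreceptors and bipolar cells release glutamate, and receptors of these classes sit in both synaptic layers, on bipolar, amacrine, horizontal and ganglion cells.

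Values are FPKM as the authors deposited them, that is, fragment numbers scaled for gene length and for the fragments mapped in each library. Since FPKM are divided by gene length, levels of different genes can be set side by side. Changes are log2 differences of FPKM + 0.5 from a limma model fitted to all genes that reached 0.5 FPKM in at least 3 of the 9 libraries, and this scale understates the change of genes at low levels. A gene is said to have risen or fallen where its Benjamini-Hochberg adjusted p over those 15678 genes was under 0.05. Of the 37 subunit genes, 35 passed this filter. Gabra5 and Grm3 did not, and have levels but no test.

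No source used here gives the library depth. Steps in the low values of 4521 genes with 1 transcript gave relative depths from 0.853 of the mean in RA WT 2 to 1.14 in OIR KO 2, with a step range set after the values had been seen, and reads could not be recovered. Within groups, libraries correlated across genes with r from 0.974 to 0.985. The tissue label was checked with sums of retinal cell markers, among them 7 cone markers at 449.0 to 629.6 FPKM per library. Il19 itself was listed at 0 in the 3 OIR KO and the 3 OIR WT libraries and at 0.0406 FPKM in RA WT 1, the only library above 0, and therefore does not check the genotype labels. OIR KO 1 and RA WT 2 had 0 FPKM of each of 4 Y-linked genes (Uty, Kdm5d, Ddx3y and Eif2s3y). Ddx3y stood at 6.80 FPKM in RA WT 3 and at 12.9 to 15.7 FPKM in the remaining libraries. Lens crystallin Cryaa reached 7.68 FPKM in OIR KO 2 and 11.6 FPKM in RA WT 1.

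To show the sequence just before these genes, RefSeq's promoter table (GRCm38.p6) was searched. It held 34 start windows for 27 of the 37 genes. The 250 bases before the start were scanned on both strands for ACGTG and GCGTG, the core letters of the hypoxia response element that hypoxia-inducible factors recognise. Of the 34 windows, 44.1% held at least 1 such core, against 38.6% of all 32851 windows in the table. GGGCGG, the GC box, stood in 50% of the 34 windows and in 32.7% of all. The cyclic AMP response element TGACGTCA stood in 0 of the 34 and in 1.55% of all. The EGR strings GCGTGGGCG or GCGGGGGCG stood in 2.94% of the 34 and in 3.06% of all, and the CRX string TAATCC in 5.88% and in 6.25%. Most of the 34 windows had more G and C than the median of 52.4% over all windows, and these shares were not adjusted for that. The 6 windows below are shown because they belong to genes that rose or fell in OIR WT retinas and overlap no annotated exon. They are written 5′ to 3′ on the gene's strand, with the hypoxia element core on either strand in capitals, merged where matches overlap.
Grik3 (kainate; chr4:125490446-125490695, plus strand): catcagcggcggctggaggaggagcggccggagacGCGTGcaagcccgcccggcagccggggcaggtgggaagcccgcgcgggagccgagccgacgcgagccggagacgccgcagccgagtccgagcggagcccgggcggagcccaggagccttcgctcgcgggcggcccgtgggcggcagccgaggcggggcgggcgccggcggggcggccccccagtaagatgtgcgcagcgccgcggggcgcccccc
Grin1 (NMDA; chr2:25319188-25319437, minus strand): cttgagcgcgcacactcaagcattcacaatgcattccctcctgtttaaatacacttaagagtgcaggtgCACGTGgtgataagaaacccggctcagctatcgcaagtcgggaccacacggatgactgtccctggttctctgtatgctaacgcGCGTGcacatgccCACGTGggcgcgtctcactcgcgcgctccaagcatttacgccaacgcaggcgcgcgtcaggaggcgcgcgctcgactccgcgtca
Gria4 (AMPA; chr9:4796235-4796484, minus strand): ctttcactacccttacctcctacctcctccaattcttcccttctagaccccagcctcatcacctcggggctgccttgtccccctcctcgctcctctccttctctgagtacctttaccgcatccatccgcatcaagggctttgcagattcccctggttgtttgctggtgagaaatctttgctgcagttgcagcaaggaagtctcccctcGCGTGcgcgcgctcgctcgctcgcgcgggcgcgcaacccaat
Glra2 (glycine; chrX:165327394-165327643, minus strand): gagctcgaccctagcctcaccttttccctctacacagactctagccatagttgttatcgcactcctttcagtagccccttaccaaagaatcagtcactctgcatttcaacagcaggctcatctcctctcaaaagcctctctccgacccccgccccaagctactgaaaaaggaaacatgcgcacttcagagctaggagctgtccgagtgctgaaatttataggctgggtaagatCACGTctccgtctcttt
Glrb (glycine; chr3:80913661-80913910, minus strand): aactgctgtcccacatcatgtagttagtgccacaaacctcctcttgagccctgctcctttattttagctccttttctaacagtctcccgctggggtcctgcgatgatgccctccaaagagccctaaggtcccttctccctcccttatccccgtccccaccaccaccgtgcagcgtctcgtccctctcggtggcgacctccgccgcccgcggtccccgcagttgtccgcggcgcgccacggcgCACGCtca
Gabra3 (GABA-A; chrX:72656920-72657169, minus strand): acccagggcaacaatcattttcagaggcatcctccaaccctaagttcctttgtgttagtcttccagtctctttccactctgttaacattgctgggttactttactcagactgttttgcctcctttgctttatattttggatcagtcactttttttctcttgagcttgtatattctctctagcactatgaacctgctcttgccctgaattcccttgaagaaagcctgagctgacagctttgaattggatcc
Grik3, the only one of the 6 that rose, had 82.0% G and C in its window and 1 core. The window of Grin1 held 3 separate stretches of core, those of Gria4, Glra2 and Glrb held 1 each, and that of Gabra3 held none. A match is a string of letters and not a bound site, and genes with and without one fell.

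Across the receptors, most subunit genes stood lower in OIR KO and in OIR WT retinas than in RA WT retinas. OIR KO differs from RA WT in genotype and in retinopathy, and the 2 cannot be told apart in that comparison. In OIR KO retinas 15 of the 35 tested genes fell and 0 rose relative to RA WT, where 5.69% of all tested genes fell and 4.75% rose. In OIR WT retinas 12 of the 35 fell and 1, Grik3, rose, where 7.92% of all tested genes fell and 8.04% rose. Both counts of fallen genes include Glra4, which passed the filter through the RA WT libraries, where it was high. The median log2 change of the 35 genes was -0.56 in OIR KO and -0.45 in OIR WT, while the median over all tested genes was 0.025 in OIR KO and 0.015 in OIR WT. Counted by sign alone, 30 of the 35 were lower in OIR KO than in RA WT and 33 were lower in OIR WT than in RA WT. The OIR KO libraries all lay below the RA WT libraries for 22 of the 35 genes, against 15.4% of all tested genes, and the OIR WT libraries did so for 21, against 17.2%. They all lay above RA WT for 1 gene, Grik3, in each group, against 17.3% of all tested genes in OIR KO and 17.8% in OIR WT. At an unadjusted p under 0.05, 23 of the 35 differed in OIR KO, against 27.6% of all tested genes, and 21 in OIR WT, against 30.4%. Both comparisons use the same 3 RA WT libraries, so they are not independent of each other. These counts depend on single libraries: the number that fell in OIR KO was 9 without OIR KO 1 and 8 without either OIR KO 2 or RA WT 3, and the number that fell in OIR WT was 6 without OIR WT 1.

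**Figure D1:**
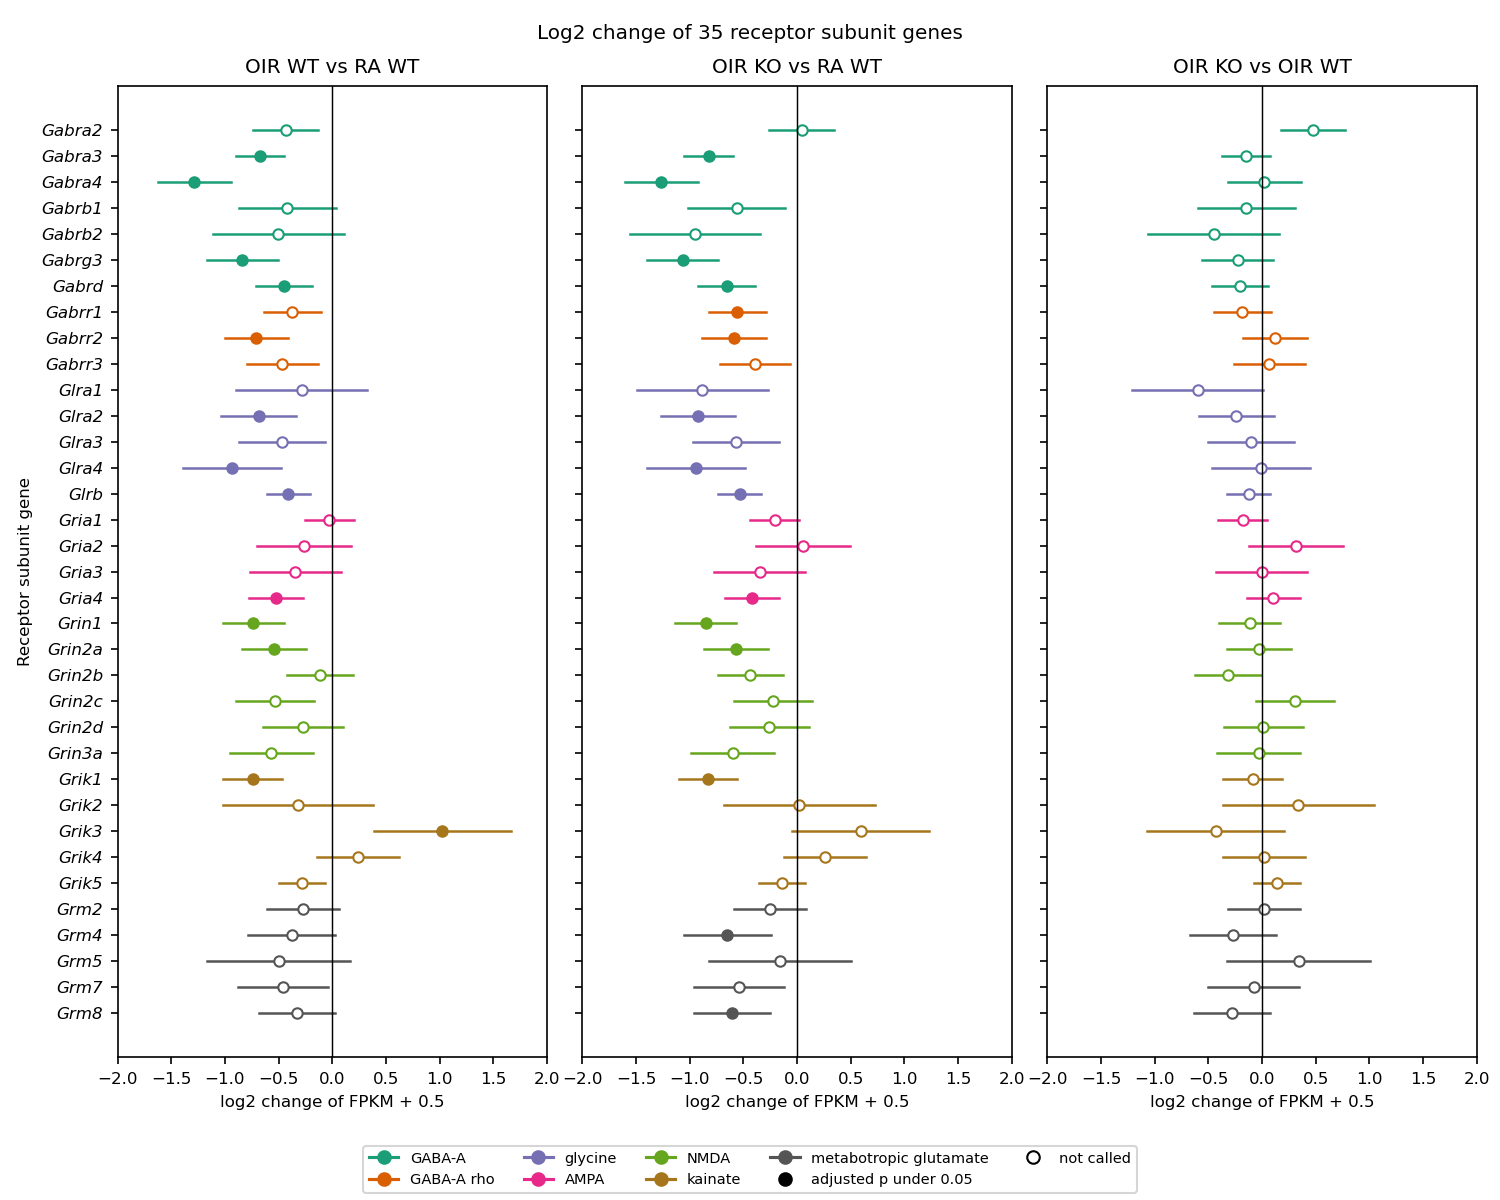
Log2 change of FPKM + 0.5 (x axis) of the 35 tested subunit genes (rows, coloured by receptor class) in OIR WT against RA WT, OIR KO against RA WT, and OIR KO against OIR WT. Points are estimates of the model on 3 libraries a group, lines are 95% confidence intervals, and filled points have an adjusted p under 0.05. In the left and middle panels most points lie left of 0, with medians of -0.45 and -0.56, and in the right panel none is filled.

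In RA WT the rho subunits led the 37 genes, with Gabrr1 at 43.2 ± 2.59 FPKM (SD, n = 3) and Gabrr2 at 37.9 ± 2.18 FPKM. Grik5 at 36.97 ± 4.21 FPKM overlapped Gabrr2. Below them came Grik1 at 29.4 ± 1.29 and Grin1 at 27.3 ± 3.97 FPKM, which overlapped each other, then Gria4 at 21.9 ± 2.06 and Glrb at 20.5 ± 0.654 FPKM, which also overlapped. These 7 genes were above 20 FPKM. Each further gene overlapped the next in this order, except that Grin3a stood apart above Grin2a and Grik4 apart above Grm3. The 4 genes with a mean under 1 FPKM were Gabrb1, Grik4, Grm3 and, lowest, Gabra5 at 0.312 ± 0.149 FPKM.

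Among GABA-A receptor subunits, Gabra4 had the most negative log2 change of the 35 genes in both comparisons with RA WT, on the log2(FPKM + 0.5) scale. In each of these comparisons, 4 of the 7 tested members fell and 0 rose, with median log2 changes of -0.83 in OIR KO and -0.50 in OIR WT. The 8 genes together summed to 16.01, 15.3 and 18.2 FPKM in OIR KO and 18.9, 18.2 and 18.0 FPKM in OIR WT, against 31.1, 27.4 and 30.9 FPKM in RA WT. The means were 55.4% of RA WT in OIR KO and 61.6% in OIR WT.

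Gabra4 encodes an alpha subunit that often pairs with delta in receptors outside synapses. It had 0.754, 0.5002 and 0.878 FPKM in OIR KO, 0.690, 0.686 and 0.669 FPKM in OIR WT, and 2.63, 2.31 and 2.23 FPKM in RA WT. All 6 retinopathy libraries lay far below the 3 room air libraries. The log2 change was -1.26 (SE 0.15, limma adjusted p = 0.00268) in OIR KO and -1.29 (SE 0.15, adjusted p = 0.00156) in OIR WT, and means were 29.8% of RA WT in OIR KO and 28.6% in OIR WT. Gabrg3, a gamma subunit, had 0.584, 0.688 and 0.875 FPKM in OIR KO, 0.835, 0.996 and 0.918 FPKM in OIR WT, and 2.30, 1.78 and 2.04 FPKM in RA WT. The room air libraries again stood apart. Gabrg3 changed by -1.06 on the log2 scale (SE 0.15, limma adjusted p = 0.00417) in OIR KO and -0.84 (SE 0.15, adjusted p = 0.00659) in OIR WT.

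Gabra3, the most abundant GABA-A alpha subunit of the list, had 5.91, 5.24 and 6.39 FPKM in OIR KO, 6.88, 6.08 and 6.63 FPKM in OIR WT, and 10.8, 10.3 and 10.98 FPKM in RA WT. No retinopathy library reached the lowest room air value. It fell by 0.83 on the log2 scale (SE 0.10, limma adjusted p = 0.0028) in OIR KO and by 0.68 (SE 0.10, adjusted p = 0.00363) in OIR WT. Gabrd, the delta subunit of receptors outside synapses, had 5.26, 4.50 and 4.57 FPKM in OIR KO, 5.67, 5.09 and 5.98 FPKM in OIR WT, and 7.08, 7.59 and 8.82 FPKM in RA WT. It was lower in each retinopathy library than in any room air library. Gabrd changed by -0.66 on the log2 scale (SE 0.12, limma adjusted p = 0.0101) in OIR KO and -0.45 (SE 0.12, adjusted p = 0.0294) in OIR WT. Gabra3, Gabra4 and Gabrg3 passed in both comparisons without any 1 library. Gabrd did so in OIR KO, but in OIR WT it passed only when RA WT 1 was left out, with adjusted p from 0.033 to 0.0897 over the 6 libraries left out, and it did not pass with Y-linked genes as a covariate (0.0258 to 0.0782 over the other settings).

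The other GABA-A genes did not pass in either comparison with RA WT. Gabra2, an alpha subunit, stood at 2.08 to 2.53 FPKM in OIR KO, 1.36 to 1.67 FPKM in OIR WT, and 2.05 to 2.54 FPKM in RA WT. The OIR WT libraries lay below both other groups, with a log2 change of -0.43 against RA WT (limma adjusted p = 0.056). The beta subunit Gabrb2 had 0.986 to 1.90 FPKM in OIR KO, 1.54 to 2.61 FPKM in OIR WT, and 1.98 to 4.29 FPKM in RA WT, with a log2 change of -0.95 (adjusted p = 0.0543) in OIR KO. Gabrb1, another beta subunit, ranged from 0.287 to 0.808 FPKM in OIR KO, 0.512 to 0.690 FPKM in OIR WT, and 0.769 to 1.10 FPKM in RA WT. Gabra5, untested, was at 0.157 to 0.236 FPKM in OIR KO, 0.345 to 0.479 FPKM in OIR WT, and 0.176 to 0.472 FPKM in RA WT.

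**Figure D2:**
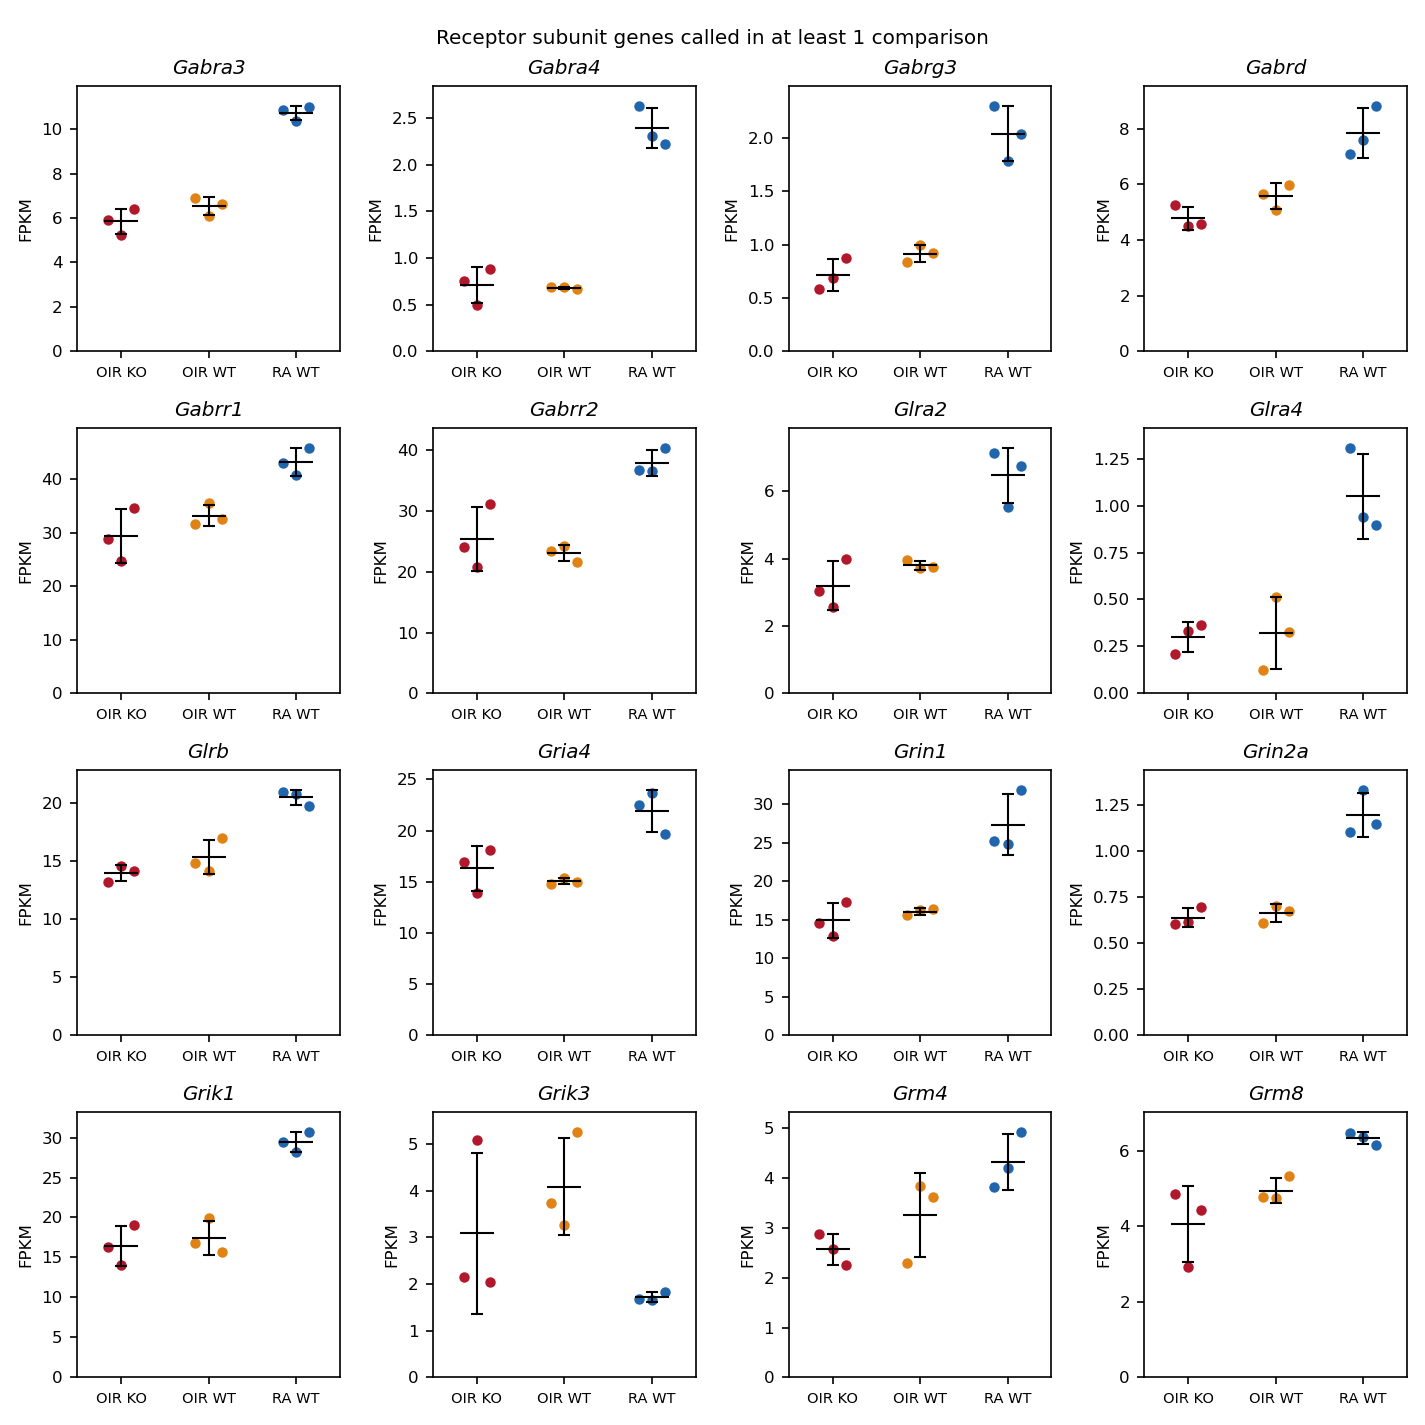
FPKM (y axis, from 0) in each library of the 16 subunit genes called in at least 1 comparison, with points for libraries, the long bar for the mean and the whiskers for 1 SD (n = 3 a group). For 15 of the 16 genes RA WT has the highest mean; Grik3 runs the other way, with RA WT at 1.65 to 1.83 FPKM below every OIR KO and OIR WT library.

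The subunits encoded by Gabrr1, Gabrr2 and Gabrr3 form slow GABA receptors found mainly on bipolar cells. In OIR KO 2 of the 3 fell and in OIR WT 1 of the 3, with median log2 changes of -0.56 in OIR KO and -0.46 in OIR WT. Gabrr2 had 24.1, 20.8 and 31.2 FPKM in OIR KO, 23.4, 24.2 and 21.6 FPKM in OIR WT, and 36.8, 36.6 and 40.4 FPKM in RA WT. The groups with retinopathy did not reach the room air values. Gabrr2 changed by -0.59 on the log2 scale (SE 0.13, limma adjusted p = 0.0227) in OIR KO and -0.71 (SE 0.13, adjusted p = 0.0084) in OIR WT. Gabrr1 had 28.9, 24.7 and 34.7 FPKM in OIR KO, 31.6, 35.5 and 32.6 FPKM in OIR WT, and 43.0, 40.8 and 45.9 FPKM in RA WT. Every library with retinopathy was below every room air library. Gabrr1 changed by -0.56 on the log2 scale (SE 0.12, limma adjusted p = 0.0188) in OIR KO, which passed, and -0.37 (SE 0.12, adjusted p = 0.0606) in OIR WT, which did not. The difference between the genotypes was -0.18 (95% confidence interval -0.45 to 0.08).

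Gabrr3, which has an antisense neighbour over 6.53% of its exonic length, had 5.90 to 6.90 FPKM in OIR KO, 4.93 to 7.38 FPKM in OIR WT, and 7.55 to 9.41 FPKM in RA WT. It lay lower with retinopathy without overlap and did not pass in either comparison. The decline of Gabrr2 in OIR WT passed without any 1 library. In OIR KO, Gabrr1 did not pass without OIR KO 1, OIR KO 2 or RA WT 3, with adjusted p from 0.00643 to 0.0702 over the 6 libraries left out. Gabrr2 did not pass there without OIR KO 1, OIR KO 2, RA WT 2 or RA WT 3 (0.0046 to 0.0832), nor when only the 2 groups entered the fit (0.0222 to 0.0508 over the other settings).

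Glycine receptors combine alpha subunits, which bind glycine, with the beta subunit, which ties the channel to the scaffold gephyrin. In each comparison 3 of the 5 genes, Glra2, Glra4 and Glrb, fell and 0 rose, with median log2 changes of -0.88 in OIR KO and -0.47 in OIR WT. Glra4 reached 0.5 FPKM in every RA WT library and otherwise only in OIR WT 2. It thus passed the filter through the group where it was high, and its fall adds little to these counts. Glrb, the beta subunit, had 13.3, 14.6 and 14.2 FPKM in OIR KO, 14.9, 14.2 and 17.0 FPKM in OIR WT, and 20.97, 20.8 and 19.8 FPKM in RA WT. The room air libraries stood above all others. The log2 change was -0.54 (SE 0.09, limma adjusted p = 0.00762) in OIR KO and -0.41 (SE 0.09, adjusted p = 0.0149) in OIR WT.

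Glra2, the leading alpha subunit here, had 3.03, 2.57 and 4.003 FPKM in OIR KO, 3.96, 3.72 and 3.75 FPKM in OIR WT, and 7.13, 5.54 and 6.74 FPKM in RA WT. Groups did not overlap between retinopathy and room air. It fell by 0.93 on the log2 scale (SE 0.15, limma adjusted p = 0.00772) in OIR KO and by 0.69 (SE 0.15, adjusted p = 0.0168) in OIR WT. Glra4, a scarce alpha subunit, had 0.212, 0.331 and 0.364 FPKM in OIR KO, 0.127, 0.512 and 0.326 FPKM in OIR WT, and 1.31, 0.940 and 0.896 FPKM in RA WT. It was low in all 6 retinopathy libraries, with means at 28.8% of RA WT in OIR KO and 30.7% in OIR WT. Its log2 change was -0.94 (SE 0.20, limma adjusted p = 0.0197) in OIR KO and -0.93 (SE 0.20, adjusted p = 0.0153) in OIR WT.

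Glra1 had 0.633 to 1.23 FPKM in OIR KO, 1.19 to 1.98 FPKM in OIR WT, and 1.12 to 2.55 FPKM in RA WT, and Glra3 had 1.88 to 2.58 FPKM in OIR KO, 1.99 to 2.66 FPKM in OIR WT, and 2.64 to 4.17 FPKM in RA WT. Neither passed. In OIR KO the calls of Glra2 and Glrb held without any 1 library, while Glra4 did not pass without OIR KO 1, OIR KO 2, RA WT 1 or RA WT 3 (adjusted p from 0.0272 to 0.0713 over the libraries left out). In OIR WT, Glra2 did not pass without OIR WT 1, OIR WT 3, RA WT 1 or RA WT 3 (0.0256 to 0.0575). Glra4 (0.0124 to 0.0588) and Glrb (0.019 to 0.0651) did not pass there without OIR WT 1. Glra2, Glra4, Gabra3 and Gria3 lie on the X chromosome, and libraries differed in Y-linked genes. With the level of Y-linked genes as a covariate, the log2 changes were -0.94 for Glra2, -0.96 for Glra4 and -0.83 for Gabra3 in OIR KO, and -0.76 for Glra2, -1.02 for Glra4 and -0.68 for Gabra3 in OIR WT, each with an adjusted p of at most 0.0264.

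AMPA receptors carry fast glutamate transmission, and here 1 of the 4 genes, Gria4, fell in each comparison. Gria4 had 16.9, 13.9 and 18.1 FPKM in OIR KO, 14.8, 15.4 and 14.97 FPKM in OIR WT, and 22.4, 23.7 and 19.6 FPKM in RA WT. The retinopathy libraries all lay below the room air libraries. Gria4 changed by -0.42 on the log2 scale (SE 0.11, limma adjusted p = 0.0409) in OIR KO and -0.52 (SE 0.11, adjusted p = 0.0135) in OIR WT. In OIR KO this call held only without OIR KO 3 (adjusted p from 0.0292 to 0.126 over the libraries left out), and in OIR WT it did not pass without OIR WT 1 (0.0211 to 0.0546). The OIR KO call was also lost with no filter on low values, with a plain variance model, with only the 2 groups in the fit and with Y-linked genes as a covariate (0.0394 to 0.089 over the other settings).

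Gria1 had 8.97 to 9.43 FPKM in OIR KO, 9.20 to 11.7 FPKM in OIR WT, and 10.4 to 11.4 FPKM in RA WT. Its log2 change in OIR WT was -0.03, with a 95% confidence interval of -0.26 to 0.20. Gria2, the subunit whose edited form keeps calcium out of the channel, had 10.1, 10.1 and 10.2 FPKM in OIR KO, 6.67, 8.37 and 9.27 FPKM in OIR WT, and 13.3, 9.90 and 7.03 FPKM in RA WT. The room air libraries overlapped both other groups, and every OIR KO library was above every OIR WT library. Gria3 had 4.30 to 5.44 FPKM in OIR KO, 3.70 to 6.09 FPKM in OIR WT, and 4.995 to 7.58 FPKM in RA WT, and did not pass. The median log2 change of the class was -0.28 in OIR KO and -0.31 in OIR WT, and without RA WT 1 the median in OIR WT was -0.13.

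NMDA receptors need both glutamate and glycine or D-serine to open, and every one contains the subunit encoded by Grin1. Of the 6 genes, 2 fell in each comparison, Grin1 and Grin2a, with median log2 changes of -0.50 in OIR KO and -0.54 in OIR WT. Grin1 had 14.6, 12.8 and 17.4 FPKM in OIR KO, 15.6, 16.3 and 16.3 FPKM in OIR WT, and 25.2, 24.8 and 31.9 FPKM in RA WT. The room air libraries stood clear of the rest. It fell by 0.85 on the log2 scale (SE 0.13, limma adjusted p = 0.00512) in OIR KO and by 0.74 (SE 0.13, adjusted p = 0.00612) in OIR WT, and held without any 1 library. The antisense gene Grin1os overlaps 13.5% of the exonic length of Grin1, and the strand setting is not stated, so reads of the pair cannot be told apart.

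Grin2a, a glutamate-binding subunit, had 0.602, 0.613 and 0.696 FPKM in OIR KO, 0.607, 0.704 and 0.673 FPKM in OIR WT, and 1.10, 1.33 and 1.15 FPKM in RA WT. Retinopathy and room air did not overlap. On the log2 scale it changed by -0.57 (SE 0.13, limma adjusted p = 0.0254) in OIR KO and -0.54 (SE 0.13, adjusted p = 0.0233) in OIR WT. In OIR KO it did not pass without OIR KO 1, OIR KO 2, RA WT 2 or RA WT 3 (adjusted p from 0.0366 to 0.0827 over the libraries left out), nor in OIR WT without OIR WT 1, OIR WT 3, RA WT 2 or RA WT 3 (0.0403 to 0.0883). The OIR KO call was lost with only the 2 groups in the fit (0.00882 to 0.0577 over the other settings), and the OIR WT call with the Y-linked covariate (0.0074 to 0.0594). Among its relatives, Grin2b had 0.627, 0.663 and 0.680 FPKM in OIR KO, 0.924, 0.971 and 0.941 FPKM in OIR WT, and 1.28, 0.924 and 1.01 FPKM in RA WT. The OIR WT libraries overlapped the room air ones and the OIR KO libraries lay below both. Grin2c had 0.746 to 1.10 FPKM in OIR KO, 0.527 to 0.739 FPKM in OIR WT, and 0.962 to 1.37 FPKM in RA WT, with a log2 change of -0.53 (adjusted p = 0.0517) in OIR WT.

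Grin2d had 2.43 to 3.54 FPKM in OIR KO, 2.42 to 3.22 FPKM in OIR WT, and 3.03 to 4.10 FPKM in RA WT. Grin3a, a glycine-binding subunit that lowers calcium flow, had 0.675 to 1.06 FPKM in OIR KO, 0.692 to 1.17 FPKM in OIR WT, and 1.41 to 1.77 FPKM in RA WT. It lay lower without overlap in both groups with retinopathy and missed the threshold in OIR KO (log2 change -0.60, limma adjusted p = 0.0553) and in OIR WT (-0.57, adjusted p = 0.0518).

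Kainate receptor genes moved in different directions in OIR WT. Grik1, which OFF bipolar cells use to receive cone input, fell in both groups with retinopathy. It had 16.3, 14.0 and 19.0 FPKM in OIR KO, 16.8, 19.9 and 15.7 FPKM in OIR WT, and 29.5, 28.1 and 30.7 FPKM in RA WT. Even the highest retinopathy library lay well below the lowest room air library. Grik1 changed by -0.83 on the log2 scale (SE 0.12, limma adjusted p = 0.00494) in OIR KO and -0.74 (SE 0.12, adjusted p = 0.00526) in OIR WT, and both calls held without any 1 library.

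Grik3, which encodes a low-affinity kainate subunit, was the only one of the 35 genes that rose. It had 2.14, 5.08 and 2.05 FPKM in OIR KO, 3.73, 3.27 and 5.27 FPKM in OIR WT, and 1.67, 1.65 and 1.83 FPKM in RA WT. All retinopathy libraries lay above the room air libraries, OIR KO 1 and OIR KO 3 by a narrow gap. The size of the change in OIR KO came mainly from OIR KO 2. The log2 change was 0.59 (SE 0.28, limma adjusted p = 0.211) in OIR KO, which did not pass, and 1.02 (SE 0.28, adjusted p = 0.0376) in OIR WT, which did. The difference between the genotypes was -0.43 (95% confidence interval -1.07 to 0.21). The call in OIR WT held only without OIR WT 2 (adjusted p from 0.0471 to 0.124 over the libraries left out), and did not pass with no filter on low values or with Y-linked genes as a covariate (0.00714 to 0.0983 over the other settings).

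Grik5, the most abundant of the class, had 33.6, 32.5 and 33.7 FPKM in OIR KO, 32.2, 28.8 and 29.5 FPKM in OIR WT, and 32.2, 40.0 and 38.7 FPKM in RA WT. RA WT 1 lay within the range of the libraries with retinopathy. On the log2 scale it changed by -0.15 (SE 0.10, limma adjusted p = 0.362) in OIR KO and -0.28 (SE 0.10, adjusted p = 0.0731) in OIR WT. Grik2 had 2.35 to 4.85 FPKM in OIR KO, 2.41 to 3.14 FPKM in OIR WT, and 2.23 to 5.81 FPKM in RA WT. Grik4, like Grik5 a partner of other kainate subunits, had 0.990 to 1.61 FPKM in OIR KO, 1.04 to 1.35 FPKM in OIR WT, and 0.765 to 1.05 FPKM in RA WT, and did not pass. The class had median log2 changes of 0.02 in OIR KO and -0.28 in OIR WT.

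Many metabotropic glutamate receptors damp transmitter release. Of the 5 tested genes, 2 fell in OIR KO, Grm4 and Grm8, and 0 in OIR WT by the same limma test, where 1 had an unadjusted p under 0.05. Grm8 had 4.85, 2.92 and 4.42 FPKM in OIR KO, 4.76, 4.74 and 5.33 FPKM in OIR WT, and 6.48, 6.37 and 6.15 FPKM in RA WT. Both groups with retinopathy lay below room air. The log2 change was -0.61 (SE 0.16, limma adjusted p = 0.0395) in OIR KO and -0.33 (SE 0.16, adjusted p = 0.194) in OIR WT, and the genotypes differed by -0.28 (95% confidence interval -0.63 to 0.08). Grm4 had 2.87, 2.57 and 2.26 FPKM in OIR KO, 2.30, 3.85 and 3.62 FPKM in OIR WT, and 3.83, 4.19 and 4.93 FPKM in RA WT. OIR KO lay below room air and OIR WT overlapped it. Its log2 change was -0.65 (SE 0.18, limma adjusted p = 0.0497) in OIR KO and -0.38 (SE 0.18, adjusted p = 0.191) in OIR WT, a difference of -0.27 (95% confidence interval -0.68 to 0.13).

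These calls were fragile. Grm4 did not pass when any 1 of the 6 libraries was left out (adjusted p from 0.067 to 0.153), and Grm8 did not without OIR KO 2 or any 1 of the RA WT libraries (0.0421 to 0.0954). Over the other settings Grm4 ranged from 0.0407 to 0.0827, and was lost with a pseudocount of 0.1, with no filter or one of 1 FPKM, with median-ratio scaling and with the Y-linked covariate, while Grm8 ranged from 0.0378 to 0.0769 and was lost with no filter and with only the 2 groups in the fit. Grm7, which sits at release sites and responds only to high glutamate, had 2.51, 2.92 and 4.09 FPKM in OIR KO, 2.66, 4.08 and 3.35 FPKM in OIR WT, and 4.16, 5.02 and 5.14 FPKM in RA WT. It lay lower in both groups with retinopathy, by a narrow gap. Its log2 change was -0.54 (SE 0.19, limma adjusted p = 0.0978) in OIR KO and -0.46 (SE 0.19, adjusted p = 0.131) in OIR WT. Grm2 had 3.15 to 4.63 FPKM in OIR KO, 3.37 to 4.26 FPKM in OIR WT, and 4.56 to 5.16 FPKM in RA WT, with the antisense gene Gm28111 over 9.60% of its exonic length. Grm5 had 1.26 to 1.88 FPKM in OIR KO, 0.877 to 1.58 FPKM in OIR WT, and 0.929 to 2.78 FPKM in RA WT. Grm3, untested, had 0.248 to 0.325 FPKM in OIR KO, 0.338 to 0.496 FPKM in OIR WT, and 0.413 to 0.539 FPKM in RA WT.

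**Figure D3:**
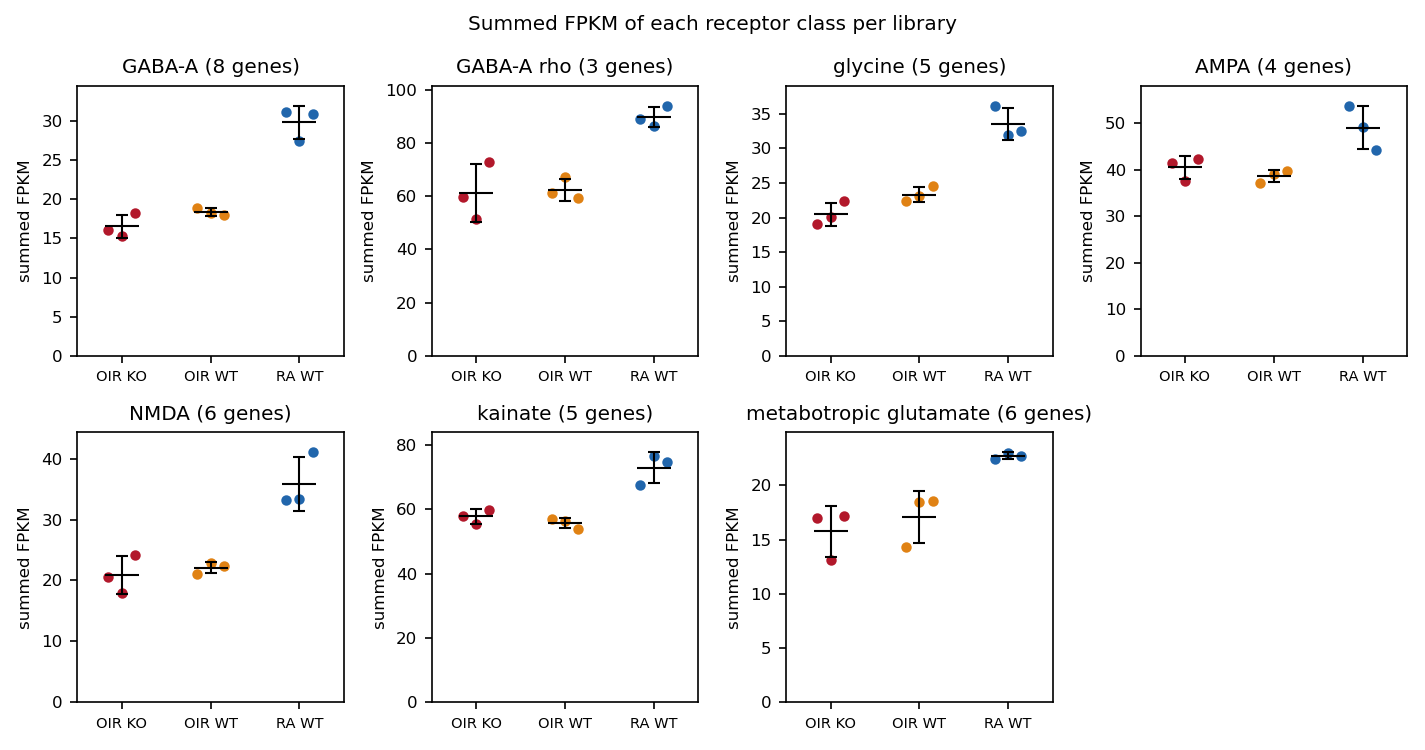
Summed FPKM (y axis, from 0) of each receptor class in each library, with points for libraries, the long bar for the mean and the whiskers for 1 SD (n = 3 a group). In all 7 classes the RA WT libraries sit above the OIR KO and OIR WT libraries, and the groups with retinopathy overlap each other except for glycine receptors, where they nearly touch.

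Summed over each class, no library with retinopathy reached the lowest room air library. The 37 genes together summed to 231.6, 211.1 and 257.1 FPKM in OIR KO and 232.0, 244.9 and 236.3 FPKM in OIR WT, against 333.1, 328.0 and 340.0 FPKM in RA WT. NMDA subunits stood at 58.3% of RA WT in OIR KO and 61.6% in OIR WT. Glycine receptor subunits stood at 61.1% in OIR KO and 69.6% in OIR WT, rho subunits at 68.3% in OIR KO and 69.6% in OIR WT. Metabotropic receptors stood at 69.3% in OIR KO and 75.2% in OIR WT. AMPA subunits, at 82.5% in OIR KO and 78.7% in OIR WT, and kainate subunits, at 79.3% in OIR KO and 76.4% in OIR WT, stood nearest to room air. A sum weighs the most abundant subunits most, and in whole tissue fewer cells of a type and less RNA per cell cannot be told apart.

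Setting the genotypes against each other with retinopathy, 0 of the 35 genes rose and 0 fell by limma, where 0.0574% of all tested genes rose and 0.0765% fell. At an unadjusted p under 0.05, 2 of the 35 differed, against 9.91% of all tested genes. They were Gabra2, at 2.08, 2.40 and 2.53 FPKM in OIR KO and 1.67, 1.58 and 1.36 FPKM in OIR WT, and Grin2b, whose values are given above. Gabra2 was higher in every OIR KO library and Grin2b lower. The log2 difference was 0.47 for Gabra2 (95% confidence interval 0.17 to 0.78, limma adjusted p = 0.304) and -0.32 for Grin2b (-0.63 to -0.01, adjusted p = 0.483).

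Over the 35 genes the median log2 difference between OIR KO and OIR WT was -0.08, and single genes lay between -0.60 for Glra1 (95% confidence interval -1.21 to 0.01) and 0.47 for Gabra2. The OIR KO libraries all lay above the OIR WT libraries for 4 genes, Gabra2, Gria2, Grin2c and Grik5, against 9.73% of all tested genes. They all lay below for 1 tested gene, Grin2b, against 7.98%, and also for the untested Gabra5 and Grm3. Intervals were wide for several genes, with an upper limit of 1.04 for Grik2 and a lower limit of -1.06 for Gabrb2, for example.

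Within classes, the shares of some subunits differed between groups. The ratio of Grin2a to Grin2b, which in the developing forebrain climbs as synapses mature, was 0.959, 0.924 and 1.02 in OIR KO, 0.657, 0.725 and 0.715 in OIR WT, and 0.863, 1.44 and 1.14 in RA WT. OIR WT lay below both other groups, and OIR KO lay within the wide range of RA WT. Mean Grin2a was 0.637 FPKM in OIR KO, 0.661 FPKM in OIR WT and 1.19 FPKM in RA WT. Mean Grin2b was 0.657 FPKM in OIR KO, 0.945 FPKM in OIR WT and 1.07 FPKM in RA WT. The ratio was thus higher in OIR KO than in OIR WT with less Grin2b, not with more Grin2a. Both genes are scarce, which makes their ratio uncertain. Gabrr1 made up 47.6 to 48.6% of the rho sum in OIR KO, 51.7 to 55.1% in OIR WT, and 47.2 to 48.9% in RA WT, so OIR WT again stood apart. Glra4 made up 3.66 to 6.02% of the glycine alpha sum in OIR KO, 1.70 to 5.78% in OIR WT, and 7.07 to 8.63% in RA WT. Gria2 made up 24.1 to 26.8% of the AMPA sum in OIR KO, 17.9 to 23.4% in OIR WT, and 15.9 to 24.7% in RA WT. These shares were not tested, and with 3 libraries against 3 an exact permutation test could not go below p = 0.1.

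**Figure D4:**
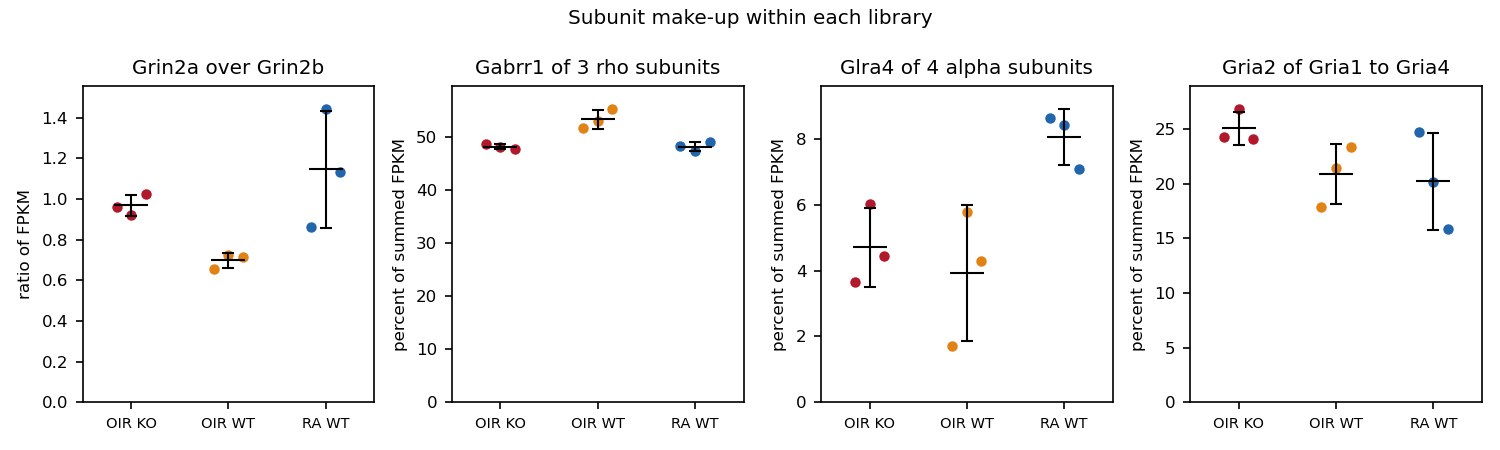
Ratio of Grin2a to Grin2b FPKM (left) and share in percent of Gabrr1 among rho, Glra4 among glycine alpha and Gria2 among AMPA subunits (y axes, from 0), with points for libraries, the long bar for the mean and the whiskers for 1 SD (n = 3 a group). OIR WT has the lowest Grin2a to Grin2b ratios, 0.657 to 0.725, and the highest Gabrr1 shares, 51.7 to 55.1%. OIR KO lies within the range of RA WT in both, a range that for the ratio runs from 0.863 to 1.44.

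Some of these genes are neighbours. On chromosome 5, Gabra4 and Gabrb1 start head to head with 195 bases between their annotated starts, and their exons overlap on opposite strands; Gabra4 fell in both comparisons, and Gabrb1 had log2 changes of -0.56 (limma adjusted p = 0.105) in OIR KO and -0.42 (adjusted p = 0.195) in OIR WT. Gabrr1 and Gabrr2 lie 36.7 kb apart on chromosome 4, and both were lower without overlap in each group with retinopathy. Glrb and Gria2 lie 40.8 kb apart on chromosome 3, where Glrb fell and Gria2 had log2 changes of 0.05 in OIR KO and -0.27 in OIR WT. On chromosome 7, 20.5 kb separate Gabrg3, which fell, from Gabra5, which was too low to test. Exons of other annotated genes overlap those of 16 of the 37 genes, on the opposite strand for 11 of them, and the values of these genes carry that uncertainty.

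Other genes of the transmission machinery were also mostly lower in both groups with retinopathy than in RA WT. Of 72 tested genes from a list of 77 for other subunits, transmitter synthesis and uptake, scaffolds and chloride transport, 19 fell and 3 rose in OIR KO, and 24 fell and 3 rose in OIR WT, with median log2 changes of -0.30 in OIR KO and -0.29 in OIR WT. Of all tested genes, 5.69% fell and 4.75% rose in OIR KO, and 7.92% fell and 8.04% rose in OIR WT, so that the 3 of 72 that rose in each were no more than the share over all genes. By sign, 58 of the 72 were lower in each group. The number that fell in OIR KO was 12 without OIR KO 1, and in OIR WT it was 12 without OIR WT 1 and 14 without either OIR WT 3 or RA WT 2. The number that rose in OIR KO was 1 without OIR KO 1, OIR KO 2 or RA WT 2. Between the genotypes 0 of the 72 passed by limma, and 7 had an unadjusted p under 0.05, a share close to the 9.91% of all tested genes.

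Among the remaining receptor subunits, 4 of 11 fell in each comparison. Gabbr1, a subunit of the metabotropic GABA-B receptor, had 41.9, 40.03 and 46.3 FPKM in OIR KO, 37.3, 38.5 and 41.2 FPKM in OIR WT, and 53.9, 50.1 and 58.4 FPKM in RA WT. It fell by 0.34 on the log2 scale in OIR KO (limma adjusted p = 0.0434) and by 0.47 in OIR WT (adjusted p = 0.0094). Grm6, the receptor by which ON bipolar cells sense photoreceptor glutamate, had 70.4, 57.2 and 75.0 FPKM in OIR KO, 48.9, 59.6 and 52.9 FPKM in OIR WT, and 70.02, 82.6 and 71.5 FPKM in RA WT. OIR WT lay below room air and OIR KO overlapped both other groups. It fell in OIR WT (log2 change -0.47, limma adjusted p = 0.029) and did not pass in OIR KO (-0.15, adjusted p = 0.47), nor between the genotypes (0.32, adjusted p = 0.428). The call in OIR WT was lost without OIR WT 1, OIR WT 3, RA WT 2 or RA WT 3 (adjusted p from 0.0281 to 0.115 over the libraries left out) and with the Y-linked covariate (0.0255 to 0.0783 over the other settings). The call of Gabbr1 in OIR WT held without any 1 library. In OIR KO it was lost without OIR KO 1, OIR KO 2, RA WT 1 or RA WT 3 (0.0361 to 0.143), and also with no filter, with equal FPKM totals, with a plain variance model, with only the 2 groups in the fit and with the Y-linked covariate (0.0425 to 0.0847 over the other settings).

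Of the 19 genes for transmitter synthesis, packing and uptake, 8 fell in each comparison. Gad1, which makes GABA, had 41.9, 37.2 and 50.8 FPKM in OIR KO, 40.8, 48.7 and 44.4 FPKM in OIR WT, and 81.8, 83.6 and 79.7 FPKM in RA WT. All 6 retinopathy libraries lay far below room air. Its log2 change was -0.92 in OIR KO (limma adjusted p = 0.00317) and -0.87 in OIR WT (adjusted p = 0.00276). Glul, the glutamine synthetase of Müller glia, had 745, 559 and 870 FPKM in OIR KO, 373, 662 and 416 FPKM in OIR WT, and 976, 1268 and 1224 FPKM in RA WT. It fell in OIR WT (log2 change -1.29, limma adjusted p = 0.00745) and not by this test in OIR KO (-0.69, adjusted p = 0.0891), with a difference of 0.61 between the genotypes (adjusted p = 0.432). The GABA transporter Slc6a11, the glycine transporter Slc6a9 and the vesicular glutamate transporter Slc17a6 fell in both, with log2 changes of -0.72, -0.96 and -1.19 in OIR KO and -0.97, -0.83 and -0.85 in OIR WT. Close relatives of these genes did not all pass. Gad2 had log2 changes of -0.32 in OIR KO (limma adjusted p = 0.1) and -0.19 in OIR WT (adjusted p = 0.287). Slc17a7, a vesicular glutamate transporter, stood at 572.8 to 747 FPKM in RA WT. Its log2 changes were -0.06 in OIR KO (limma adjusted p = 0.791) and -0.19 in OIR WT (adjusted p = 0.288).

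Of 40 scaffold and auxiliary genes, 7 fell and 2 rose in OIR KO, and 12 fell and 2 rose in OIR WT. Cnih3, an AMPA receptor partner, and Cacng5, of the same kind, had log2 changes of -0.89 and -1.01 in OIR KO and -1.02 and -0.81 in OIR WT, all of which passed. Grip2, which binds AMPA receptors, fell in OIR WT (-0.91, limma adjusted p = 0.00467) and missed in OIR KO (-0.52, adjusted p = 0.0516). Olfm2, of a secreted family that binds AMPA receptors, had 50.6, 61.3 and 38.1 FPKM in OIR KO, 67.9, 44.4 and 71.7 FPKM in OIR WT, and 20.8, 23.6 and 27.9 FPKM in RA WT. It rose by a log2 of 1.02 in OIR KO (limma adjusted p = 0.0201) and of 1.31 in OIR WT (adjusted p = 0.00599). Elfn1, which recruits metabotropic glutamate receptors across the synapse, rose by a log2 of 0.38 in OIR KO and 0.56 in OIR WT. Slc12a2, which loads cells with chloride, rose by 0.54 in OIR KO and 0.39 in OIR WT, while its counterpart Slc12a5, which exports chloride, had log2 changes of -0.32 in OIR KO and -0.18 in OIR WT and did not pass. In OIR KO, Olfm2 did not pass without OIR KO 1, OIR KO 2, RA WT 1 or RA WT 2 (adjusted p from 0.0109 to 0.0681), and Elfn1 held only without RA WT 1 (0.0339 to 0.111) and was lost with no filter, a plain variance model or only the 2 groups in the fit (0.0337 to 0.075). In OIR WT, Slc12a2 held only without RA WT 1 (0.0348 to 0.0972) and was lost with the Y-linked covariate (0.0256 to 0.059).

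Markers of ganglion, amacrine and horizontal cells, which carry many of these receptors, were lower as well. The share of all tested genes that fell, against which their counts are read, was 5.69% in OIR KO and 7.92% in OIR WT. Of 10 ganglion cell markers, 8 fell in OIR KO and 7 in OIR WT, and their sum was 224.9 to 342.8 FPKM in OIR KO, 335.4 to 393.9 FPKM in OIR WT, and 580.3 to 720.6 FPKM in RA WT. Of 13 amacrine markers, 4 fell in OIR KO and 6 in OIR WT, with sums of 312.7 to 424.4 FPKM in OIR KO, 373.1 to 411.5 FPKM in OIR WT, and 548.5 to 641.6 FPKM in RA WT. Of 8 horizontal cell markers, 4 fell in OIR KO and 3 in OIR WT, with sums of 133.5 to 188.7 FPKM in OIR KO, 140.0 to 162.2 FPKM in OIR WT, and 213.1 to 225.6 FPKM in RA WT. In all 3 lists the sums of the groups with retinopathy lay below room air without overlap. This was not particular to these lists: the sums of OFF and cone bipolar, cone and Müller glia markers, given next, did the same.

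Bipolar, photoreceptor and glial markers gave mixed counts. Of 10 rod and ON bipolar markers 1 fell in each comparison, a count near the share over all genes, and their sum was 351.1 to 444.5 FPKM in OIR KO, 293.6 to 384.1 FPKM in OIR WT, and 426.4 to 491.4 FPKM in RA WT. Of 11 OFF and cone bipolar markers, 3 fell in OIR KO and 4 in OIR WT, with sums of 137.9 to 176.9 FPKM in OIR KO, 154.8 to 181.4 FPKM in OIR WT, and 206.8 to 229.8 FPKM in RA WT. Of 8 rod markers none fell by limma, where 0 in OIR KO and 1 in OIR WT had an unadjusted p under 0.05, and their median log2 change was -0.04 in OIR KO and -0.06 in OIR WT. Of 7 cone markers 0 fell in OIR KO by limma, where 2 had an unadjusted p under 0.05, and 1 fell in OIR WT, with sums of 449.0 to 587.7 FPKM in OIR KO, 459.4 to 606.9 FPKM in OIR WT, and 614.3 to 629.6 FPKM in RA WT. Of 8 Müller glia markers, 2 fell in OIR KO and 5 in OIR WT, with sums of 1832 to 2022 FPKM in OIR KO, 1272 to 1721 FPKM in OIR WT, and 2111 to 2797 FPKM in RA WT. No marker of these lists was listed at 0 in every library, and none rose by this test. How far the levels of these cell markers account for the receptor values was not tested.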

How the data were processed

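RNA of 9 retina samples, 3 a group, was measured by sequencing. Total RNA was isolated with Trizol and libraries were built with NEB reagents, per the labels' protocols. The submitters' processing notes name HISAT2 and GRCm38. No source used here gives the quantifier, versions, annotation or strand setting. A single table of FPKM was deposited by the authors, with a column for each library and no counts, so counting error cannot be given.

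From these values, log2(FPKM + 0.5) was taken without further scaling. Genes with at least 0.5 FPKM in at least 3 of 9 libraries (15678) were fitted with limma 3.58.1 in R 4.3.3, with 1 mean per group over all 9 libraries, empirical Bayes moderation with trend and robust options, two-sided tests and Benjamini-Hochberg adjustment over all genes kept. The threshold was an adjusted p of 0.05. The code was tested on simulated data. Class sums are sums of FPKM per library, and ratios and percent shares were taken within each library from the deposited FPKM. Gene coordinates came from GENCODE M21 (GRCm38), which matched 22022 of 22036 Ensembl IDs, including those of the 37 genes. Sequences came from RefSeq (GRCm38.p6).

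The 37 genes and the lists of pathway genes and cell markers were chosen with earlier results of these data known. Each of the 37 is named. Values in every library are given for those called in at least 1 comparison, and in each class for the most abundant one and the one with the smallest adjusted p in OIR WT against RA WT. Pathway genes are named where called, up to 8 in each direction. Gabra2 and Grin2b, set out between the genotypes, Grm3, the neighbouring pairs and the promoter windows were picked after their values were seen. So were the pathway genes Gabbr1, Grm6, Slc12a5, Gad2 and Slc17a7. The alternatives were 19 other settings: pseudocount, filter, scaling, variance model, samples in the fit, replicate block, Y-linked covariate, and each library left out.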

Additional observations from a re-analysis of the deposited data

How the results depend on the processing

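No called change reversed direction under the 19 other settings, while several that did not pass, such as Gria1 in OIR WT (log2 -0.10 to 0.07 with 1 library left out) and Gria2 in OIR KO (-0.17 to 0.27), changed sign. Of the gene results under other settings, 2633 stayed on the same side of the threshold, 120 no longer passed and 30 newly passed. The number of the 35 genes that rose in OIR WT against RA WT, 1 as reported, was 0 with no filter on low values, 0 with the replicate block, 0 with Y-linked genes as a covariate, and 0 to 1 with 1 library left out. With 1 library left out, the number that fell was 8 to 18 in OIR KO, against 15 with all libraries, and 6 to 15 in OIR WT, against 12. The number of pathway genes that fell was 12 to 22 in OIR KO, against 19, and 12 to 28 in OIR WT, against 24. The 3 pathway genes that rose in OIR KO were 1 with the replicate block and 1 to 3 with 1 library left out. The median log2 change of NMDA genes was -0.71 in OIR KO and -0.75 in OIR WT with a pseudocount of 0.1, and -0.37 in OIR KO and -0.40 in OIR WT with 1. That of glycine receptor genes in OIR KO was -0.65 with a pseudocount of 1. That of AMPA genes in OIR WT was -0.41 to -0.13 with 1 library left out. That of kainate genes in OIR KO, 0.02 as reported, was -0.15 to 0.29. A larger pseudocount shrinks the log2 change of low genes by construction; other causes were not tested.

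Same-numbered libraries were compared for pairing. Their deviations from the group means correlated between -0.353 and 0.134, so the numbers were not taken as pairs. With the replicate block, 11 of the 35 genes fell in OIR KO and 10 in OIR WT. Besides the settings named in the report, the calls of Gria4, Grin2a, Grm4, Grm8, Olfm2 and Elfn1 in OIR KO and of Gabrd, Grin2a, Grik3 and Grm6 in OIR WT were also lost with this block.

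Depth is unknown, and genes under about 1 FPKM, such as Glra4, Grin2a, Gabrb1 and Gabra5, have the least certain values. With 3 libraries a group, differences between the genotypes could be missed, and the intervals given are not a limit of detection. Those of Gabra2 (0.17 to 0.78) and Grin2b (-0.63 to -0.01) excluded 0, yet neither gene passed after adjustment.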
